A study of Mus musculus with 44 samples.

Results

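The 5 genes described here encode proteins that load and display peptides for T cells: Cd74, H2-Aa, H2-Ab1 and H2-DMa of the MHC class II pathway, and H2-K1 of class I. They were taken by name from the 3613 genes listed for 44 single mouse cells sorted as osteomacs, which are macrophages that live on bone surfaces. All 5 are listed. The sort came from cultures of neonatal calvarial cells, the mixed cells of newborn skull bone, of genotype C57BL/6J, and it took CD45+ F4/80+ CD41- cells after 16 h. One group of 20 cells, all from plate 7, had 50000 megakaryocytes, the platelet-forming cells of the marrow, added to the culture and is called with-MK here. The other 24 cells, all from plate 3, came from culture without megakaryocytes and are called without-MK. Titles of the without-MK cells also name megakaryocytes, so the grouping rests on the treatment field of the labels.

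MHC class II proteins are heterodimers of an alpha chain, encoded here by H2-Aa, and a beta chain, encoded by H2-Ab1. Cd74 encodes the invariant chain, which blocks their groove until endosomal proteases remove it, and H2-DMa encodes a chain of the H2-M heterodimer that exchanges the last invariant chain fragment for peptide. Class II is known from dendritic cells, B cells and activated macrophages, whereas class I, whose heavy chain H2-K1 pairs with beta-2 microglobulin, is displayed by nearly all nucleated cells.

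H2-Aa was read strongly in few cells and H2-K1 in most, so the DNA upstream of this pair is shown. Both are protein-coding and lie in the MHC on the minus strand of chromosome 17: H2-Aa at chr17:34282744-34287823 and H2-K1 at chr17:33996017-34000347 (GRCm38, the assembly also called mm10). The 250 bases before the start of H2-Aa and before 1 of 2 starts of H2-K1, from RefSeq on GRCm38.p6, are chr17:34287824-34288073 for H2-Aa and chr17:34000348-34000597 for H2-K1. They are written 5′ to 3′ along the gene, with motif matches in capitals.
H2-Aa: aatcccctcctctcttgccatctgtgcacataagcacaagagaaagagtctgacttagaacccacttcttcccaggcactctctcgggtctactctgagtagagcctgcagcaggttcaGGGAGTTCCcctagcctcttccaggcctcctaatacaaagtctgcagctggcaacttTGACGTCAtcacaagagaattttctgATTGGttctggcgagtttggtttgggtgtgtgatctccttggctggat
H2-K1: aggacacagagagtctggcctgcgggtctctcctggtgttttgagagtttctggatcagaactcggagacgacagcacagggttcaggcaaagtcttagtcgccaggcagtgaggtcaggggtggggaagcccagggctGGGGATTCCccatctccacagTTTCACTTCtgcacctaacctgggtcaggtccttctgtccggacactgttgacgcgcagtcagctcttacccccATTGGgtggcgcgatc
In the H2-Aa window the capitals mark, in order, a match to the NF-kappaB motif GGGNNTTCC upstream of the others, the cAMP response element TGACGTCA that starts 74 bases before the gene and a CCAAT box, read as ATTGG, at 48 bases. In the H2-K1 window they mark the same NF-kappaB motif at 111 bases, the interferon response core GAANNGAAA, read on the other strand as TTTCACTTC, at 90 bases, and ATTGG at 16 bases. Both strands were searched and no matches overlapped. Among 32851 RefSeq windows of 250 bases, the NF-kappaB motif was present in 4.98%, the cAMP response element in 1.55%, the interferon core in 6.31% and CCAAT in 33.8%. These are letter matches, not measured binding.

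Each cell was captured on a Fluidigm C1 chip and sequenced from amplified cDNA. Values are given in CPM, the reads of a gene scaled to 1000000 reads of that cell's library. The deposited values are a scaled signal, from which whole reads were recovered. Library reads ran from 69181 to 1212604 in with-MK cells (median 834834) and from 270537 to 714465 in without-MK cells (median 527930). No label names an animal or culture, so each group is at most 1 sample, no test was made, and every interval below covers counting error only (95%). Reads without molecular identifiers can be copies of 1 molecule. Plate and treatment coincide and cannot be told apart.

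The without-MK cells go against their label as sorted macrophages. The gene for CD45, Ptprc, was read in every with-MK cell but in 1 without-MK cell of 24. For Adgre1, the F4/80 gene, 17 with-MK cells of 20 and 1 without-MK cell of 24 were positive, and 22 of the 24 had neither. The 12 listed macrophage markers of a list of 14 summed to 1159 to 48869 CPM in with-MK cells (median 16373) and to 0 to 119 CPM in without-MK cells (median 6.65). The 7 listed osteoblast and fibroblast markers of a list of 12 summed to 3.88 to 196 CPM in with-MK cells (median 11.2) and to 4276 to 98080 CPM in without-MK cells (median 10051). Each comparison of the groups below is therefore also one between cells with macrophage transcripts and cells with stromal transcripts, and the share of either in the differences was not tested. None of the listed genes is among the 9 dendritic cell, 5 B cell or 6 T and NK cell markers looked for.

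All 5 genes were at least 2-fold higher in with-MK cells in pooled reads, against 26.3% of the 3569 listed genes with over 3 reads in a group. The size and the number of cells behind it differed from gene to gene. Cd74 and H2-K1 had reads in every with-MK cell, H2-DMa in most, and H2-Aa and H2-Ab1 at 10 CPM or more in only 2. In without-MK cells, H2-K1 was the only one of the 5 with reads in more than 2 cells. Reads of at least 1 of the 5 genes at 10 CPM or more were found in 19 of 20 with-MK cells and 8 of 24 without-MK cells. Of the with-MK cells, 8 had 2 of the genes at that level, 8 had 3, and 1 cell each had 0, 1, 4 and 5.

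**Figure D1:**
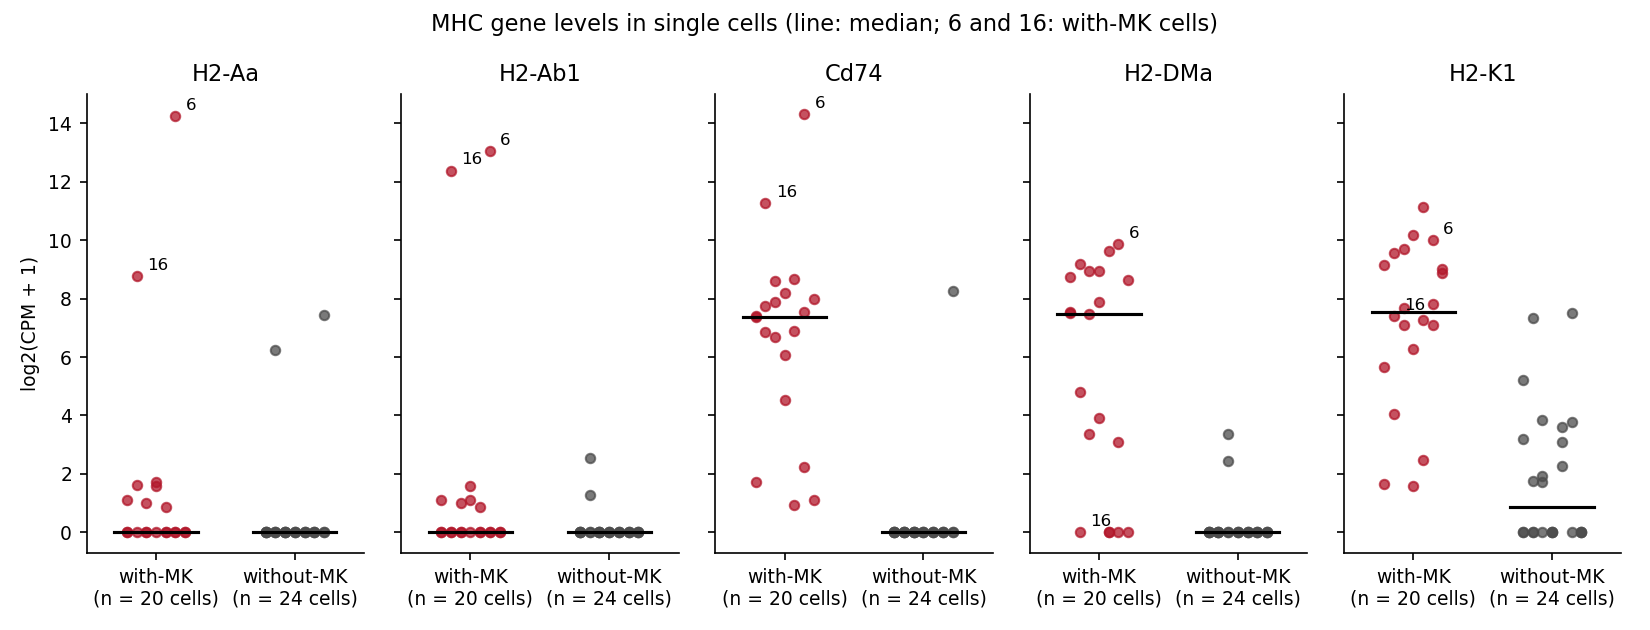
Level of each of the 5 genes in each cell as log2(CPM + 1), with the 20 with-MK cells left of the 24 without-MK cells for each gene; points are single cells. Cd74 and H2-K1 are above 0 in all 20 with-MK cells, whereas H2-Aa and H2-Ab1 are at 10 CPM or more in only 2 of them.

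The class II alpha and beta chain genes came almost whole from 1 cell. H2-Aa had 13935 reads in with-MK cells (891 CPM, pooled), of which with-MK cell 6 held 13896, or 99.7%. H2-Ab1 had 6424 reads in with-MK cells (411 CPM), of which the same cell held 6036, or 94.0%. With-MK cell 16 was the only other one above 2 reads, with 31 reads of H2-Aa and 383 of H2-Ab1.

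Across with-MK cells H2-Aa ran from 0 through a median of 0 to 19638 CPM, and across without-MK cells from 0 through a median of 0 to 172 CPM. It had a read in 8 of 20 with-MK cells (40%, exact interval 19.1 to 63.9%), against 2 of 24 without-MK cells (8.33%, 1.03 to 27%), and 2 cells of each group were at 10 CPM or more. The pooled ratio of with-MK to without-MK was 73.3 (62.4 to 86.6), a log2 ratio of 6.19. It rested on cell 6: without that cell the with-MK level was 2.61 CPM, against 12.2 CPM in without-MK cells, a ratio of 0.215. The mean of log2(CPM + 1), which weighs cells equally, was 1.55 ± 3.58 in with-MK cells, against 0.57 ± 1.94 in without-MK cells (SD over 20 and 24 cells), so the groups overlapped.

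H2-Ab1 ran from 0 through a median of 0 to 8530 CPM across with-MK cells, and from 0 through a median of 0 to 4.76 CPM across without-MK cells. Reads were present in 7 of 20 with-MK cells (35%, 15.4 to 59.2%), against 2 of 24 without-MK cells (8.33%), where they came to 3 reads in all. The pooled ratio was 1700, with a counting interval of 581 to 8245 because of those 3 reads. Leaving out with-MK cell 6 gave a ratio of 108, and leaving out cells 6 and 16 gave 1.39. H2-Ab1 lies at chr17:34257689-34269419 on the plus strand, near H2-Aa in the MHC.

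Cell 6 stood apart in the 4 class II genes listed, of 16 looked for. Its library of 707594 reads held 14355 reads of Cd74 (20287 CPM), 13896 of H2-Aa (19638 CPM), 6036 of H2-Ab1 (8530 CPM), 659 of H2-DMa (931 CPM) and 723 of H2-K1 (1022 CPM). These made up 5.04% of its reads, against a median of 0.0655% in with-MK cells and of 0.000334% in without-MK cells. It was highest of the 20 for the 4 class II genes and the third for H2-K1, and it alone had all 5 at 10 CPM or more. Divided by the length of the merged annotated exons, its levels were 12083 CPM per kb for Cd74, 5171 for H2-Aa, 3322 for H2-Ab1, 348 for H2-K1 and 270 for H2-DMa. The alpha chain was thus 1.56 times the beta chain per kb in cell 6, and the invariant chain 2.34 times the alpha chain. These ratios rest on merged exon lengths of 1679 bases for Cd74, 3798 for H2-Aa and 2568 for H2-Ab1. The lengths of the transcripts in the cell were not measured, and in CPM Cd74 and H2-Aa stood close, at 20287 and 19638. The deposited signal, which divides by other numbers, was also close for Cd74 and H2-Aa, at 142867 and 143346, with H2-Ab1 at 72291. On that scale H2-DMa, at 5203, stood above H2-K1, at 1462, the opposite order to that per kb.

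Cell 16 had a different balance. Its library was small, at 71585 reads, with 177 reads of Cd74 (2473 CPM), 31 of H2-Aa (433 CPM), 383 of H2-Ab1 (5350 CPM), 12 of H2-K1 (168 CPM) and none of H2-DMa, where the limit of 3 reads stands for 41.9 CPM. The beta chain was 18.3 times the alpha chain per kb, the opposite order to cell 6. Other values set this cell apart as well: its macrophage marker sum of 1159 CPM was the lowest of the 20, and the nuclear RNA Malat1 made up 245233 CPM, the highest. Its osteoblast and fibroblast marker sum of 196 CPM was also the highest, but 1 read stands for 14.0 CPM in this cell. The other cell with a library this small, with-MK cell 11 at 69181 reads, had a sum of 159 CPM. The part of these in its class II values was not tested.

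Both class II cells carried macrophage transcripts, with gaps. Cell 6 had reads of 9 of the 12 listed macrophage markers, among them the growth factor receptor gene Csf1r at 688 reads (972 CPM) and Adgre1 at 276 reads (390 CPM). It had 2 reads of Ptprc, and Fcgr1, Mrc1 and C1qc were at 0. Its marker sum of 6509 CPM ranked 18 of 20. Cell 16 had reads of 10 of the 12, with 54 reads of Csf1r (754 CPM), 8 of Lyz2 and 6 of Ptprc, while Cd68, Fcgr1, Mrc1 and C1qc had 1 read each and Adgre1 and C1qb were at 0. It had as many reads of the stromal genes Sparc (5), Col1a2 (4) and Bgn (3) as of most of those markers. The rest of the 7 listed osteoblast and fibroblast markers were lower in it, with 2 reads of Col3a1 and 0 of Postn, Mgp and Lox. The markers of dendritic and B cells were not among the genes listed, so those identities were not analysed here.

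Some partners of the pathway, picked from the list after their values were seen, were low in both cells. These cells also had the fewest listed genes with a read of the 20, at 1528 in cell 6 and 1247 in cell 16, beside a with-MK median of 2054, and the part of that was not tested. Ctsl, which encodes cathepsin L, an endosomal protease that cuts the invariant chain in thymic epithelium, had 1 read in cell 6 (1.41 CPM) and 8 in cell 16 (112 CPM). The other 18 with-MK cells ran from 199 through a median of 1861 to 17160 CPM, so both cells lay below all of them. Pdia3, a disulfide isomerase that helps to assemble class I, was at 74.9 CPM in cell 6 and 83.8 CPM in cell 16, below the 167 to 3254 CPM of the other 18. Psme2, a subunit of a proteasome activator, had no read in either cell, where the limit of 3 reads stands for 4.24 CPM in cell 6 and 41.9 CPM in cell 16, and ran from 28.9 through a median of 79.0 to 261 CPM in the other 18. Ctss, which encodes cathepsin S, the protease that trims the invariant chain in dendritic cells and B cells, was at 2593 CPM in cell 6 and 1397 CPM in cell 16, within the range of 17.2 to 7778 CPM in the other 18. Other partners stood high in cell 6 or in cell 16, but not in both. Cell 6 ranked 2 of 20 for Ctsh and B2m and 3 for Ctsd and Psmb8, where cell 16 ranked 13, 10, 20 and 18. Cell 16 ranked 2 for Calr, where cell 6 ranked 15.

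**Figure D2:**
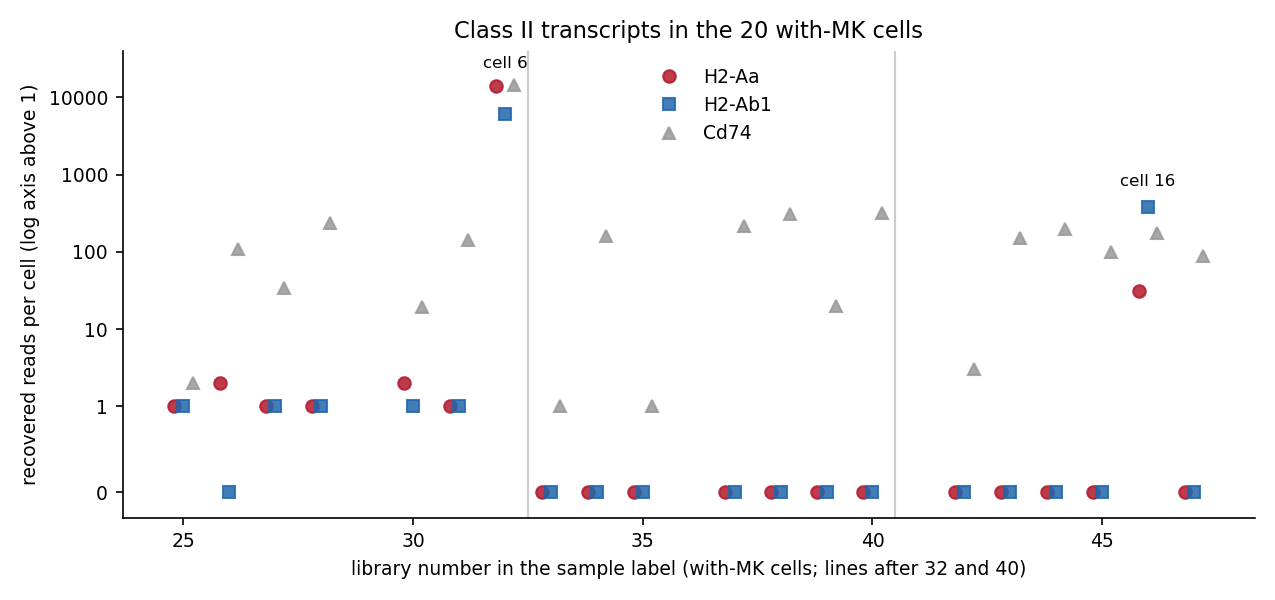
Reads per cell of H2-Aa, H2-Ab1 and Cd74 (log axis above 1 read) in the 20 with-MK cells, in order of the library number in the sample labels; the vertical lines follow numbers 32 and 40. Cells 6 and 16 carry from 31 to 13896 reads of a class II chain, and their other reads, of 1 or 2, are all in cells numbered 25 to 32.

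Outside cells 6 and 16, the class II chain genes were read at 1 or 2 reads a cell. H2-Aa had 8 such reads and H2-Ab1 had 5, all in with-MK cells whose library numbers ran from 25 to 32, the last of which is cell 6. Blocks of 8 numbers were drawn after the values were seen, and in the first block 6 of the 6 other cells had H2-Aa reads and 5 of 6 had H2-Ab1 reads. None of the 7 cells numbered 33 to 40, and none of the 5 others numbered 41 to 48, had a read of either. For scale, the bone matrix gene Sparc was read in all 20 with-MK cells at a median of 3.07 CPM, beside a highest trace of H2-Aa of 2.34 CPM. Cd24a, with 912 of its 921 with-MK reads in cell 6, was spread otherwise. It had reads in 2 of the 6 other cells of the first block, and 7 reads in 1 of the 7 cells numbered 33 to 40. What left the H2-Aa and H2-Ab1 reads outside cells 6 and 16 was not tested.

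Cd74 combined a broad low level with the same high cell. It ran from 0.906 through a median of 165 to 20287 CPM across with-MK cells, and 16 of 20 were at 10 CPM or more. With-MK cells 1, 7, 13 and 19 had 1 to 3 reads each. Without cells 6 and 16 the other 18 still ran to 411 CPM with a median of 140.5 CPM, so the invariant chain was read in cells where its class II partners were at 0 or at trace.

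In without-MK cells all 213 reads of Cd74 came from cell 21 (305 CPM), and the other 23 had none. Pooled, Cd74 stood at 1064 CPM in with-MK cells, against 17.2 CPM in without-MK cells, a ratio of 62.0 (54.2 to 71.3). Leaving out with-MK cell 6 brought the with-MK level to 153 CPM and the ratio to 8.91. The without-MK level rests on 1 cell as well, and without the top cell of each group Cd74 was at least 597-fold higher in with-MK cells. The mean of log2(CPM + 1) was 6.70 ± 3.32 in with-MK cells, against 0.34 ± 1.69 in without-MK cells, a difference of 6.36, which was 5.68 without with-MK cells 6 and 16. The gene, at chr18:60803848-60812652 on the plus strand, is the only one of the 5 outside the MHC.

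The 2 without-MK cells with over 10 CPM of H2-Aa had few reads of macrophage genes. Cell 21 had 213 reads of Cd74 and 120 of H2-Aa (172 CPM) but none of H2-Ab1, H2-DMa or H2-K1. Cell 9 had 31 reads of H2-Aa (73.8 CPM), 2 of H2-Ab1, 1 of H2-K1 and none of Cd74. Neither had a read of Ptprc or Adgre1, their macrophage marker sums were 7.16 CPM in cell 21 and 2.38 CPM in cell 9, and their osteoblast and fibroblast sums were 4332 CPM and 28479 CPM.

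Of the 5 genes, H2-DMa had the smallest share of its with-MK reads in 1 cell. It ran from 0 through a median of 178 to 931 CPM across with-MK cells and from 0 through a median of 0 to 9.24 CPM across without-MK cells. Reads were present in 15 of 20 with-MK cells (75%, 50.9 to 91.3%), 13 of them at 10 CPM or more, and in 2 of 24 without-MK cells (8.33%, 1.03 to 27%), which held 5 and 2 reads. Its top with-MK cell, cell 6, held 18.2% of the reads. The 5 with-MK cells without a read, cells 5, 13, 14, 16 and 19, and cell 20, with 6 reads (7.49 CPM), lie within the without-MK range, and the other 14 lie above it.

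Pooled H2-DMa was 231 CPM in with-MK cells, against 0.564 CPM in without-MK cells. The ratio was 410, with an interval of 199 to 1022 set by the 7 without-MK reads. The mean of log2(CPM + 1) was 5.47 ± 3.81 in with-MK cells, against 0.24 ± 0.83 in without-MK cells. Its gene lies at chr17:34119541-34139101 on the plus strand, in the MHC. Of the pair that H2-M needs, only the alpha chain could be followed, since H2-DMb1 and H2-DMb2 are not among the genes listed.

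H2-K1, the class I heavy chain, was the gene most shared by the groups. It ran from 1.97 through a median of 186 to 2260 CPM in with-MK cells and from 0 through a median of 1.14 to 180 CPM in without-MK cells. All 20 with-MK cells and 12 of 24 without-MK cells (50%, 29.1 to 70.9%) had reads, with 17 with-MK and 6 without-MK cells at 10 CPM or more. With-MK cells 8, 18 and 19 had only 2, 1 and 5 reads, below several without-MK cells, so the groups overlapped.

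No single cell made the H2-K1 difference: with-MK cell 12 held 28.1% of the with-MK reads, at 1749 of 6235, and without-MK cell 2 held 41.7% of the without-MK reads, at 116 of 278. Pooled levels were 399 CPM in with-MK cells, against 22.4 CPM in without-MK cells, a ratio of 17.8 (15.8 to 20.2). The mean of log2(CPM + 1) was 7.18 ± 2.84 in with-MK cells, against 1.89 ± 2.37 in without-MK cells.

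H2-K1 and H2-D1, the other classical class I heavy chain gene listed, are related genes, and how far read counting could move reads between them was not tested. H2-D1 ran from 0 through a median of 258 to 1428 CPM in with-MK cells and from 0 through a median of 32.6 to 173 CPM in without-MK cells, with a pooled ratio of 7.20 (6.63 to 7.83). Summed, the pair had 765 CPM in with-MK cells, against 73.2 CPM in without-MK cells, a ratio of 10.4 (9.76 to 11.2). Reads of the sum were found in all 20 with-MK cells and in 23 of the 24 without-MK cells. Class I reads were therefore not missing from the without-MK cells as a group: 11 of them had reads of H2-D1 alone, 3 of H2-K1 alone and 9 of both. Some of these counts rest on 1 read, as in without-MK cells 7 and 24. At 10 CPM or more, H2-D1 was found in 14 and H2-K1 in 6 of the 24.

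The balance within the pair varied from cell to cell. In with-MK cells H2-K1 made up from 0.44% of the summed reads in cell 8, 0.57% in cell 18 and 0.98% in cell 19 to 94.95% in cell 12 and 100% in cell 20. Without-MK cell 13 had 111 reads of H2-K1 and 1 of H2-D1, whereas without-MK cell 12 had 2 of H2-K1 and 90 of H2-D1. B2m, the light chain that both heavy chains need, was in contrast read in all 44 cells, from 319 through a median of 1258 to 7572 CPM in with-MK cells and from 84.5 through a median of 361 to 993 CPM in without-MK cells. Its pooled ratio was 4.36 (4.23 to 4.495).

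**Figure D3:**
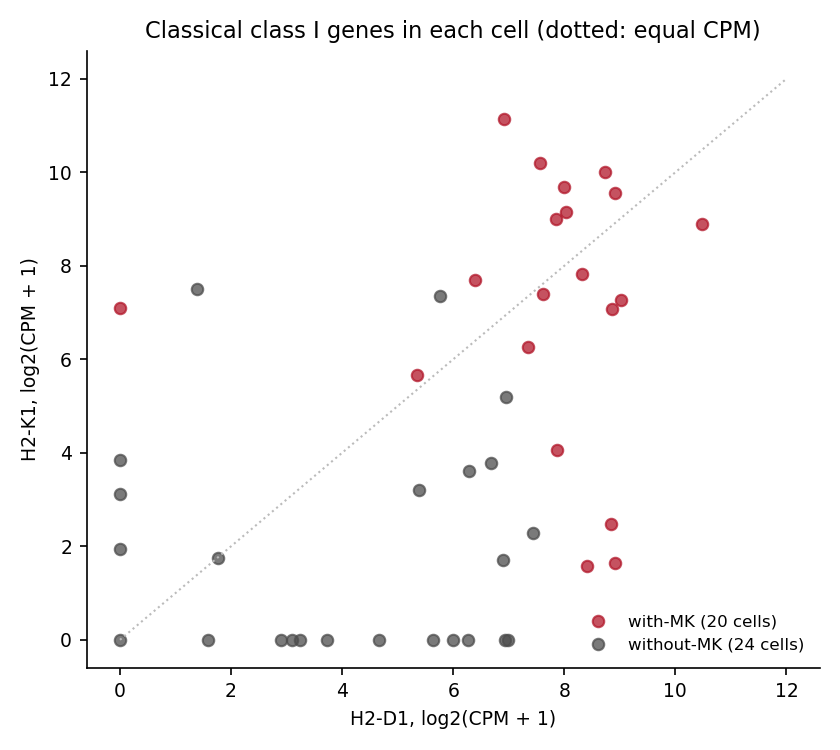
H2-K1 against H2-D1 in each of the 44 cells, both as log2(CPM + 1), with a dotted line at equal CPM; points are single cells. The with-MK cells lie towards the upper right but scatter to both sides of the line, and 11 without-MK cells lie on the horizontal axis with H2-D1 reads alone.

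Set in order per kb, with-MK levels depend on whether pooled reads or the typical cell is taken. Pooled, Cd74 came first at 634 CPM per kb, then H2-Aa at 235, H2-Ab1 at 160, H2-K1 at 135.7 and H2-DMa at 67.1. By the median cell the order was Cd74 at 98.6 CPM per kb, H2-K1 at 63.4, H2-DMa at 51.7, and both class II chains at 0. That order rests on the merged exon lengths: in CPM the medians were 186 for H2-K1, 178 for H2-DMa and 165 for Cd74. The ranges of Cd74, H2-K1 and H2-DMa over cells overlapped. These genes were measured in the same cells, and whether they differed within cells was not tested. Pooled without cells 6 and 16, H2-K1 led at 125.98 CPM per kb, with Cd74 at 84.4, H2-DMa at 57.8, H2-Aa at 0.142 and H2-Ab1 at 0.131. In CPM H2-K1 also led there, at 370, but H2-DMa at 199 stood above Cd74 at 141.7. The deposited signal divides H2-K1 by 699 and H2-DMa by 179, and Cd74 by a smaller number still. On that scale H2-K1 stood below both H2-DMa and Cd74 in each of these orders, so its place depends on the divisor.

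Within the 20 with-MK cells Cd74, H2-DMa and H2-K1 were weakly related to each other by Pearson correlation. Cd74 and H2-DMa were both at 10 CPM or more in 11 cells, Cd74 alone in 5, H2-DMa alone in 2, and neither in 2. Their levels had a Pearson correlation of 0.21 over 20 cells, as log2(CPM + 1), that of Cd74 and H2-K1 was 0.25, and that of H2-DMa and H2-K1 was 0.21. Spearman correlations of the same pairs were higher, at 0.34, 0.41 and 0.42 in that order. The Pearson values are weak, and all are given as descriptions of cells that share a plate and differ in depth. H2-Aa and H2-Ab1 had a Pearson correlation of 0.97, which rests on cells 6 and 16 and on the single reads of 1 block of libraries. Cd74 had 0.62 with H2-Aa and 0.61 with H2-Ab1 over all 20 cells, and -0.11 and -0.15 without cells 6 and 16.

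The genes most like each member over the 20 with-MK cells, among 3310 read in at least 3 of them, differed by member. For Cd74 they were Lilrb4a, an inhibitory receptor of myeloid cells, at a Pearson correlation of 0.66, the zinc transporter gene Slc30a7 at 0.66, Trim30d at 0.64, H2-Aa at 0.62 and the adenylate cyclase gene Adcy7 at 0.61. Without cells 6 and 16 these were 0.61 for Lilrb4a, 0.47 for Slc30a7, 0.33 for Trim30d, -0.11 for H2-Aa and 0.58 for Adcy7. For H2-DMa they were the receptor gene Gpr141 at 0.78, the histone variant gene H2afy at 0.73, the NADPH oxidase subunit gene Ncf4 at 0.70, the vacuolar proton pump gene Atp6v0d1 at 0.68 and Mcmbp at 0.67. The cysteine protease gene Ctsh was the pathway gene most like H2-DMa, at 0.64. For H2-K1 they were the kinase gene Hipk1 at 0.69, the chemokine gene Ccl3 at 0.66, the importin gene Ipo4 at 0.63, the noncoding RNA Tug1 at 0.59 and the chaperonin gene Tcp1 at 0.56.

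For the class II chains the likeness leaned on cell 6, by itself or with cell 16. Besides each other, H2-Aa was most like Cd24a at 0.78, Gm15708 at 0.74, Cdk5rap2 at 0.71 and Mmp12 at 0.70. Cd24a, a small surface glycoprotein gene, had 912 of its 921 with-MK reads in cell 6, and Mmp12, which encodes macrophage elastase, had 3308 of 5360 in cell 6 and 494 in cell 16. Cd24a, Gm15708 and Cdk5rap2 had no read in cell 16. Without both cells the correlation with H2-Aa was 0.18 for Cd24a, 0.15 for Gm15708, 0.47 for Cdk5rap2 and 0.00 for Mmp12.

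H2-Ab1 was most like Iqgap1 at 0.74, Mmp12 at 0.74, Ptprj at 0.73 and Cox8a at 0.68. Iqgap1 and Cox8a were read in all 20 with-MK cells. Without cells 6 and 16 the correlation with H2-Ab1 was -0.06 for Iqgap1, 0.05 for Mmp12, 0.05 for Ptprj and 0.46 for Cox8a, where H2-Ab1 itself had 5 reads left.

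Most listed genes of the wider pathway were higher in with-MK cells. Of a list of 63 antigen presentation genes, 30 are listed in the table: 26 were at least 2-fold higher in with-MK cells, 0 were at least 2-fold lower, 3 lay within 2-fold and H2-Q10, with 1 read in all, has no fold. Leaving out the 5 genes above, 21 of 25 were higher. The median log2 ratio of the list was 2.74, beside -0.12 over all 3569 genes with over 3 reads in a group, of which 26.3% were at least 2-fold higher and 29.0% at least 2-fold lower. The macrophage and stromal markers above move with these values as well.

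**Figure D4:**
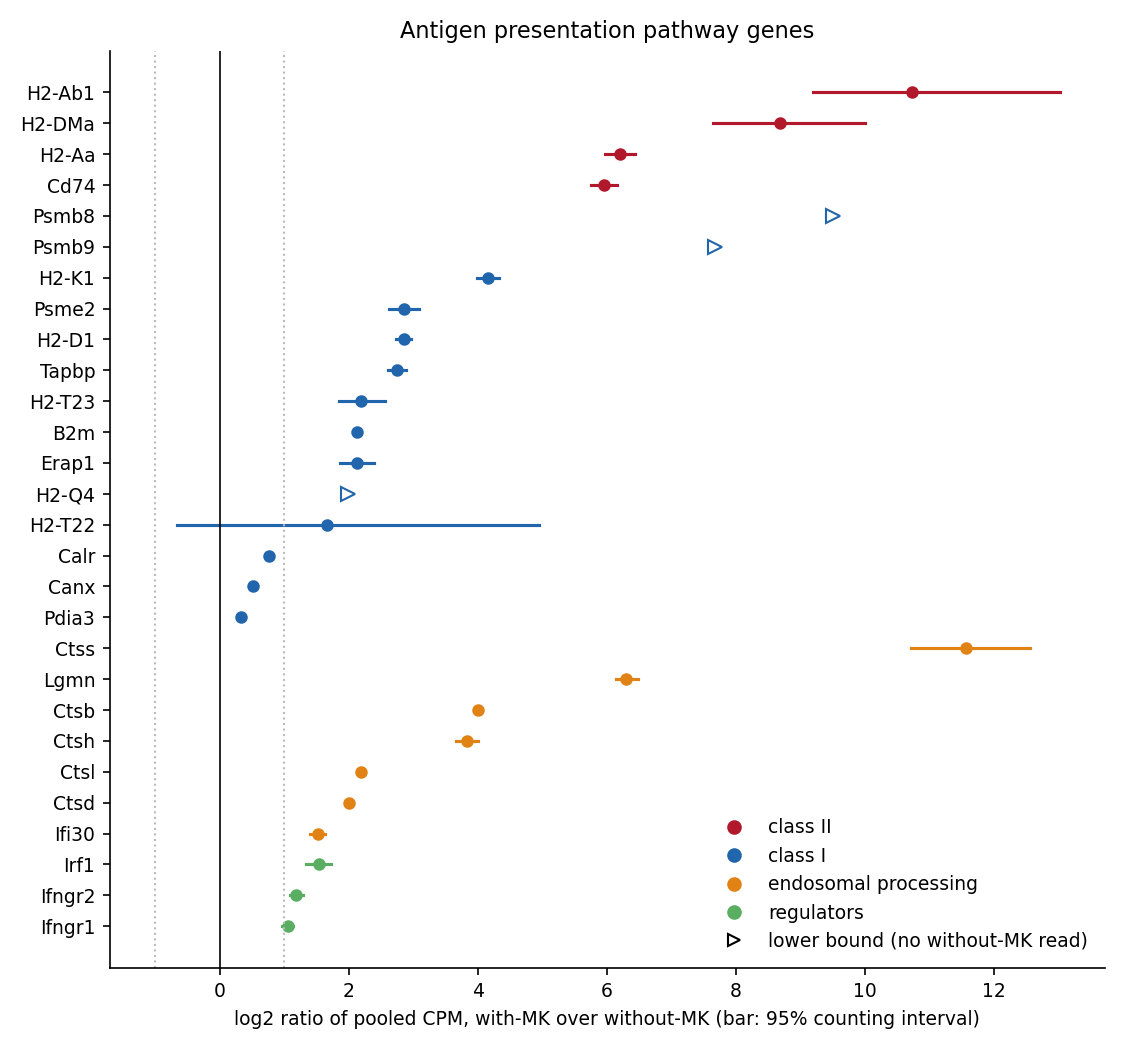
Pooled ratio of with-MK to without-MK cells on a log2 scale for listed antigen presentation genes, grouped by role, with bars for the 95% counting interval; open triangles mark lower bounds where without-MK cells had no read. Ctss and H2-Ab1 lie farthest to the right, and Calr, Canx and Pdia3 lie within 2-fold.

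Genes of endosomal processing, 6 proteases and the thiol reductase gene Ifi30, were at least 2-fold higher in with-MK cells in pooled reads for 7 of 7. Over all 3569 genes with over 3 reads in a group the share was 26.3%. Ctss stood out: it ran from 17.2 through a median of 1861 to 7778 CPM in with-MK cells and from 0 through a median of 0 to 4.44 CPM in without-MK cells, with no overlap between the groups. Its ratio was 3009 (1682 to 6029), on 41697 with-MK reads and 11 without-MK reads. Lgmn, the asparaginyl endopeptidase, had 1822 CPM in with-MK cells, against 23.1 CPM in without-MK cells (78.8, 70.2 to 88.8). Ctsb had a ratio of 16.1, Ctsh 14.3, Ctsl 4.56 and Ctsd 4.03. Ifi30 had a pooled ratio of 2.87, but 1 with-MK cell held 39.9% of its with-MK reads and its typical cell went the other way: the median was 18.1 CPM in with-MK cells, against 39.2 CPM in without-MK cells, and 14 of 20 with-MK cells and 19 of 24 without-MK cells had reads. All 20 with-MK cells had reads of both Ctss and Cd74, and 12 of them had no read of H2-Aa.

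Among class I genes, 11 of 15 were at least 2-fold higher, H2-K1 included, beside 26.3% of all 3569 genes with over 3 reads in a group. The 11 include H2-Q4, which had 15 with-MK reads, 14 of them in with-MK cell 4, and no without-MK read. The immunoproteasome subunit genes Psmb8 and Psmb9 had no without-MK read. Psmb8 had 2750 reads in 17 of 20 with-MK cells (176 CPM), at least 728-fold higher against a limit of 3 reads over the without-MK group, and Psmb9 had 772 in 9 of 20 (49.4 CPM), at least 204-fold higher. Tapbp, which encodes tapasin, had 257 CPM in with-MK cells, against 38.4 CPM in without-MK cells (6.70, 6.09 to 7.38). The general chaperone genes Calr, Canx and Pdia3 had ratios of 1.70, 1.43 and 1.25. H2-T23, a nonclassical class I gene, had a pooled ratio of 4.58, but its median was 0.573 CPM in with-MK cells, against 3.70 CPM in without-MK cells. The ratio of H2-T22, 3.18, rests on 8 with-MK and 2 without-MK reads and its interval, 0.634 to 30.7, includes 1.

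Among genes of the interferon response that regulate the pathway, Irf1, a transcription factor, had a pooled ratio of 2.89 (2.53 to 3.32), with 64.3 CPM in with-MK cells, against 22.2 CPM in without-MK cells. Its median was 0 in both groups, with reads in 9 of 20 with-MK cells and 8 of 24 without-MK cells. With-MK cell 1 held 39.3% of its with-MK reads. The interferon gamma receptor chain genes Ifngr2 and Ifngr1 had ratios of 2.27 and 2.08, the last with an interval of 1.95 to 2.21. Neither class II cell stood high in the receptor genes: cell 6 had 3 reads of Ifngr1 and none of Ifngr2, and cell 16 had 3 reads of each. Ciita, the class II transactivator gene, and the 5 costimulation genes of the list are not among the genes listed.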

How the data were processed

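The deposited table holds a scaled signal per gene and cell, made by the authors with genome build mm10 and Seurat per the submitters' processing notes. Which aligner, counter and annotation they used is not given in the sources used here. From the values, the deposited signal is reads × 1e9 divided by the library reads and by a whole number per gene. Library reads were taken from the most frequent value of each cell, and the smallest whole divisor per gene made all 99807 values above 0 whole within 0.0001. The design had assumed reads; sums of these recovered reads were kept, and CPM is inferred from them. The divisors were 142 for Cd74, 137 for H2-Aa, 118 for H2-Ab1, 179 for H2-DMa and 699 for H2-K1, which are not their exon lengths.

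Cells were grouped by the treatment label. Each group is at most 1 sample, so cells are not replicates and no test was made. Shares have exact Clopper-Pearson, sums exact Poisson and ratios exact conditional binomial 95% intervals (scipy 1.17.1, pandas 2.3.3, numpy 2.4.6, Python 3.11.15). They cover counting error only. A group with no read was set to 3 reads. The recovery was tried on simulated counts that vary widely from cell to cell. The ratio interval was tried on simulated Poisson counts only, so that trial cannot show how it behaves with reads as uneven over cells as these. Lengths are merged exons of GENCODE M21. No clustering, cell filter or doublet caller was used. Alternatives covered the scaling, read thresholds, thinned reads, low-count filters and left-out cells.

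The 5 genes, the pathway and marker lists and the alternatives were chosen with earlier results of these data known. The genes named are these 5, the listed members of the pathway list, the 5 genes of highest Pearson correlation with each of the 5 over with-MK cells, the sort genes, and the marker genes of the cells with most class II reads; Malat1 was added after its values were seen. A gene of the pathway list is counted but not reported here.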

Additional observations from a re-analysis of the deposited data

How the results depend on the processing

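No paired analysis was possible because plate and treatment coincide, the numbers of the cells only name them, and each group is at most 1 sample. Of 35 alternative values of the pooled log2 ratio, 32 stayed above 0. H2-Aa was the exception: 6.19 in the report, it was -2.22 without with-MK cell 6, -4.50 without cells 6 and 16 and -0.018 without the top cell of each group, but 6.62 as a mean of the deposited signal and 5.93 per listed reads. Its difference in mean log2 level was -0.13 without cells 6 and 16 and 0.98 with them. Cd74, at 5.95, was 3.16 without cell 6, 3.05 without cells 6 and 16, at least 9.22 without the top cell of each group, 6.65 by signal and 5.69 per listed reads. H2-Ab1, at 10.73, was 6.75 without cell 6, 0.48 without cells 6 and 16 and 8.28 without the top cells. H2-DMa, at 8.68, was 10.20 without the top cells. H2-K1, at 4.15, was 4.45 without the top cells, 4.57 by signal and 3.89 per listed reads.

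Shares of with-MK cells were 80% for Cd74 and 10% each for H2-Aa and H2-Ab1, both at 10 CPM or more and at 5 reads or more, and 5.56% for H2-Ab1 after thinning to 310000 reads, which leaves out the shallow cell 16. Shares of without-MK cells were 0% for H2-Ab1 at either threshold, 0% for H2-DMa and 25% for H2-K1 at 10 CPM or more. Cells with both H2-Aa and H2-Ab1 numbered 2 at 10 CPM or more, against 7 with any read. The count of 26 pathway genes stayed within 1.5 times under its 4 alternatives. Leaving out cells 6 and 16, and counting co-detection at 10 CPM, were chosen after seeing the data. In cells 11 and 16 a single read exceeds 10 CPM, so absence there is a weak statement.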
